A study of Mus musculus with 10 samples.

Results

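The genes described here encode the proteins of the cytosolic ribosome, measured in dendritic cell precursors of the mouse spleen. They were selected on their names and measured levels in a table of 52550 rows, namely genes called Rpl or Rps with a number, together with Rplp0, Rplp1, Rplp2 and Rpsa. A member also had to lie above 0 on the log2 RPKM scale (reads per kilobase of gene, scaled to the size of the library, log2) in at least 5 of 10 libraries. Of 88 rows whose names fitted, 84 passed this level, 49 named for the large and 35 for the small subunit, and 82 of them lay above 0 in all 10 libraries. The annotation calls 80 of the 84 protein coding and 4 processed pseudogenes, namely Rps3a2, Rps3a3, Rpl6l and Rps4l. Because members were chosen by that level, their high levels are a description with no test.

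The ribosome translates mRNA with a small subunit that reads the message and a large subunit that joins amino acids. Each subunit is an assembly of ribosomal RNA and a set of proteins that are mostly needed in equal numbers, so that their genes are usually expressed together. Their mRNAs are abundant, short and typically begin with a C followed by a run of pyrimidines, the terminal oligopyrimidine tract, through which the kinase mTORC1 controls their translation.

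The study compared 2 kinds of precursor of conventional dendritic cells (cDC), the antigen-presenting cells that prime T cells. Pre-cDC1, titled DN, give rise to cDC1, and pre-cDC2, titled Ly6C, give rise to cDC2. The cells were sorted from spleens of C57BL/6 mice, either WT or CD11c-cre Adam10fl/fl (called KO here), in which the Cre recombinase under the CD11c promoter deletes the protease gene Adam10 in cells expressing CD11c. There were 3 WT pre-cDC1 libraries, 3 KO pre-cDC1 libraries, 2 WT pre-cDC2 libraries (replicates 2 and 3) and 2 KO pre-cDC2 libraries (replicates 1 and 2). No age is stated for the mice. In these bulk samples, fewer cells of a type and less RNA per cell cannot be told apart.

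Recovered totals were 7859880 to 13173924 reads per library, of which the members took 2.10% to 3.32%. Of the 84 members, 77 had at least 100 reads in every library. The row of Adam10 itself lay at -2.29 to 0.13 log2 RPKM in WT pre-cDC1 and -3.90 to -1.50 in KO pre-cDC1. In pre-cDC2 it lay at 1.76 and 4.53 in WT and at 4.11 and 4.24 in the libraries labelled KO, so that its RNA level did not separate the genotypes there. The row sums the whole gene, so it does not test the deleted part. The pre-cDC1 libraries carried the cDC1 markers at a mean of 6.73 to 7.22 log2 RPKM (8 genes), against at most 2.04 in the pre-cDC2 libraries. The pre-cDC2 libraries also carried 15 T cell markers, none at 0 reads. Their mean was 6.64 in WT replicate 3, 6.25 and 6.20 in the KO libraries and 2.81 in WT replicate 2, which stands apart. The 8 natural killer (NK) cell markers were split alike, at 6.41, 6.27 and 6.12 against 2.32 in WT replicate 2. That library also had the highest pre-cDC2 means of the cDC2 (4.99), plasmacytoid DC (6.51) and all cDC (6.31) markers. In pre-cDC1 the T cell mean was -0.65 to 0.49 in WT and -2.42 to -1.61 in KO. KO minus WT values in pre-cDC2 are also given without WT replicate 2, which leaves 1 WT library. This covers the main counts, the members' medians by coding length, the medians of the shortest mRNAs and the genes that move by over 1.5 times.

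At the start of the gene, 60 of the 84 members had a RefSeq promoter sequence (build GRCm38.p6, 250 bases before to 50 after the annotated start). In 13 of these 60 members (21.7%) the annotated start was a C that opened a run of at least 5 C or T on the gene's own strand, against 3.01% of all 27025 genes of that table. The motif TTTCC on either strand, from 10 bases before to 20 after the start, stood in 28.3% of the members and in 9.84% of all genes, and it can overlap the run. Annotated starts can be off by some bases, so a start without the run says only that these letters are not there. Shown are 4 starts with 20 bases before and 10 from the start, with the run in capitals: members that appear in the results, among them the large subunit genes Rpl38 and Rplp2 and the small subunit genes Rps6 and Rps27.
Rpl38, chr11:114668560-114668589, plus strand: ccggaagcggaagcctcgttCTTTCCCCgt
Rplp2, chr7:141447631-141447660, plus strand: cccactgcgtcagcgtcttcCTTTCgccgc
Rps6, chr4:86857358-86857387, minus strand: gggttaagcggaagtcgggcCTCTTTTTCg
Rps27, chr3:90213639-90213668, minus strand: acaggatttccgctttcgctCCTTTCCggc

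Over the 10 libraries the members' mean levels ran from 0.41 to 10.82 log2 RPKM with a median of 6.27, which lay above 96.7% of the 14787 genes tested. The highest were Rplp0 (10.82), which anchors the stalk that recruits translation factors, Rpl4 (10.36), whose product lines the exit tunnel, Rps4x (9.54), Rpl8 (8.85) and Rpl3 (8.81), next to the peptidyl transferase centre. At the low end were Rps15a (4.03 log2 RPKM), Rpl13a (3.87), Rpl6l (2.73), Rpl24 (1.12) and Rps4l (0.41). Rpl24 had 8 to 87 reads per library and was above 0 in 8 libraries, and Rps4l had 4 to 56 reads and was above 0 in 5, the members just inside the level rule. Just outside it were Rpl3l, above 0 in 1 library, and Rps12l1, Rpl39l and Rpl10l, above 0 in none. Rpl3l, Rpl39l and Rpl10l are known as tissue-restricted relatives of core genes. The RPKM divides by all annotated exonic bases of a gene, so the order between genes depends on that annotation. In 60 of the 84 members the table also lists pseudogene rows of the same name, and the counting of reads that fit several copies is not stated.

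Members with short coding sequences were at higher levels in the libraries labelled KO than in WT in both kinds of precursor. Members with long ones were not as a set, lying on both sides of 0. No single member passed an adjusted p of 0.05 in either cell type (limma with Benjamini-Hochberg adjustment over 14787 genes). That is 0 of 84 in pre-cDC1, where 0.0271% of all genes passed, and 0 of 84 in pre-cDC2, where 0.0676% passed. The median member difference, KO minus WT, was 0.57 on the log2 scale in pre-cDC1, where 70 members were higher and 14 lower, and 0.55 in pre-cDC2, where 66 were higher and 18 lower. Over all genes tested the medians were -0.0038 and 0.0048, and 48.7% and 50.7% of genes were higher. At an unadjusted p under 0.05, 44 of the 84 members were higher in pre-cDC1, against 3.89% of all genes, and 34 in pre-cDC2, against 3.56%. None was lower in either, against 5.14% and 3.12% of all genes. With voom on the recovered reads, adjusted calls were again 0 and 0, against 0% and 0.0271% of all genes. At an unadjusted p under 0.05 by voom, 44 and 37 members were higher (4.02% and 4.93% of all genes). By voom 0 and 0 were lower (3.98% and 2.5% of all genes). In pre-cDC1 the KO and WT libraries did not overlap for 50 members that were higher (7.88% of all genes) and 2 that were lower (9.27%). In pre-cDC2, with 2 against 2 libraries, this held for 48 members that were higher (15.6% of all genes) and 4 that were lower (14.6%). The labels do not say whether libraries of a group came from separate animals, so p-values measure only the spread between these libraries.

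The medians depended on single libraries. Without KO replicate 3 the pre-cDC1 median was 0.32, and that library was the highest of the 6 pre-cDC1 libraries for 73 of the 84 members. Without WT replicate 2, the library low in T cell and NK cell markers, the pre-cDC2 median was 0.35. That library was the lowest of the 4 pre-cDC2 libraries for 66 members. In that fit 56 members were higher (49% of all genes), and at an unadjusted p under 0.05 14 were higher (5.7% of all genes) and 3 lower (2.98%). The KO libraries then lay above the remaining WT library for 48 members (34.1% of all genes) and below it for 19 (34.7%). Without WT replicate 3 the pre-cDC2 median was 0.83, with 8 members (9.52%) past the threshold against 7.09% of all genes. Without KO replicate 1 in pre-cDC1, 2 members (2.38%) passed against 0.0744% of all genes. Marker lists moved with the genotype as well. The mean of 8 proliferation markers was 4.15 to 4.24 log2 RPKM in KO against 3.22 to 3.46 in WT pre-cDC1, and 2.96 and 3.29 against 2.12 and 2.65 for the later pair of groups. Single markers did not overlap, higher in KO, for 7 of 8 in pre-cDC1 and 5 of 8 in pre-cDC2, and Pcna overlapped in both. Means of 9 erythroid markers were 1.15 to 1.68 against -0.16 to 1.03 in pre-cDC1, while KO pre-cDC2 had 1.26 and 2.301 against -3.02 and -2.17 in WT. Among the WT pre-cDC2 libraries, 3 and 4 of these 9 markers were at 0 reads, Slc4a1, an anion exchanger of red cells, in both libraries. In pre-cDC1 other lists were lower in KO without overlap of their means. The cDC2 markers were at -0.08 to 1.17 against 2.03 to 2.50 in WT. NK cell markers were at -2.70 to -0.85 against 0.33 to 1.48, and plasmacytoid DC markers at 2.99 to 3.24 against 3.54 to 3.88. Monocyte and neutrophil markers were at 2.62 to 3.58 against 3.59 to 4.26. The T cell means given above did not overlap either. The cDC1 markers were higher in KO, at 7.12 to 7.22 against 6.73 to 6.80. Single markers were lower without overlap for 8 of 11 cDC2, 5 of 8 NK cell, 3 of 7 plasmacytoid DC and 5 of 15 T cell markers (9.27% of all genes). Among 7 monocyte and neutrophil markers 2 were lower and 1 higher. Up to 4 NK cell and 3 T cell markers were at 0 reads in a KO pre-cDC1 library, so these means lie partly at the floor. The part of any of these in the ribosomal protein differences was not tested.

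The size of the difference followed the length of the coding sequence. Among the 80 members with an annotated coding sequence, Spearman's rho between coding length and the KO minus WT difference was -0.85 in pre-cDC1 and -0.83 in pre-cDC2. These are correlations across genes of the same libraries, which are not independent replicates. Leaving out each library in turn gave -0.90 to -0.80 in pre-cDC1. The same in pre-cDC2 gave -0.86 (without WT replicate 2) to -0.67 (without WT replicate 3). Median differences were 0.96 in pre-cDC1 and 1.16 in pre-cDC2 for the 10 members of up to 300 coding bases. They were 0.77 and 0.89 for the 28 members of 301 to 450 bases, and 0.55 and 0.54 for the 19 members of 451 to 600 bases. For the 23 members over 600 bases they were -0.01 and -0.09. Without WT replicate 2, the 4 pre-cDC2 medians were 1.06, 0.59, 0.35 and -0.33. The rho was weaker with the length of the whole mRNA (-0.51 and -0.53) and with the mean level (-0.56 and -0.36), and coding length and mean level were themselves related (rho 0.60). Between the cell types the rho with coding length was -0.23 in WT and -0.38 in KO.

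**Figure D1:**
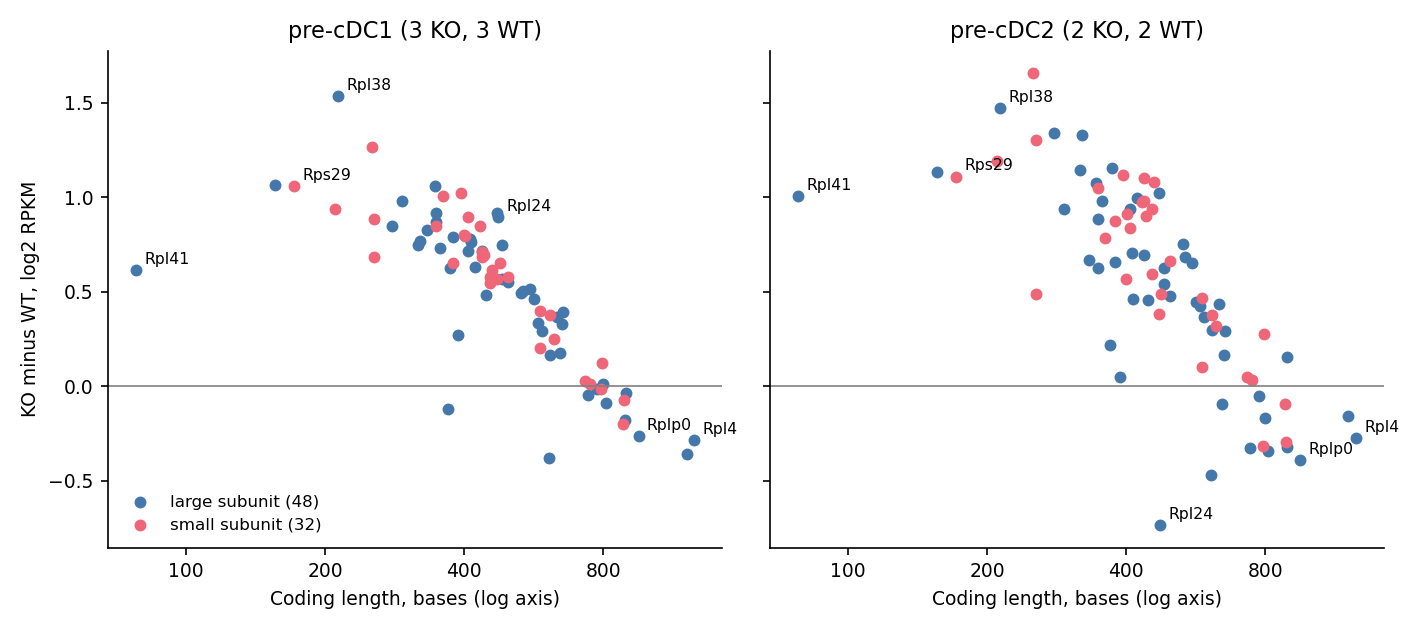
KO minus WT difference in log2 RPKM (vertical axis) against coding length in bases (log axis) for 80 ribosomal protein genes, 1 point per gene, coloured by subunit, in pre-cDC1 (left) and pre-cDC2 (right). Short genes such as Rpl38 (1.53 and 1.47) lie above 0. Long genes lie on both sides of 0, with Rpl4 (-0.28 and -0.27) slightly below. Rpl24, which has few reads, is off the pattern in pre-cDC2 (-0.73). Its value there was -1.58 without WT replicate 2 and 0.11 without WT replicate 3.

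The coding sequences of 3 of the 10 shortest members show how small these genes are. They run from 78 bases in Rpl41 to 213 in Rpl38 (GENCODE release 21 transcripts, start and stop codon in capitals).
Rpl41: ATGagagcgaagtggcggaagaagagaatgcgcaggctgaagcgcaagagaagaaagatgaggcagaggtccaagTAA
Rpl39: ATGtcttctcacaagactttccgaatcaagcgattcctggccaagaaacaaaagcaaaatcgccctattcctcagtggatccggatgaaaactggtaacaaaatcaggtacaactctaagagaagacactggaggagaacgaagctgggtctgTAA
Rpl38: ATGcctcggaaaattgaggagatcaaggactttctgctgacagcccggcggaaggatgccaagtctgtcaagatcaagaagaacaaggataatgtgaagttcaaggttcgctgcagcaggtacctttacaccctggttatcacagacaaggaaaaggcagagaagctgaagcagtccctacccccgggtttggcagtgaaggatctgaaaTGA

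Rpl38, a large subunit protein known for its role in translating patterning mRNAs of the embryo, had the smallest p of any member in pre-cDC1. It lay at 4.03, 3.97 and 4.67 log2 RPKM in WT pre-cDC1 and at 4.94, 5.93 and 6.40 in KO. In pre-cDC2 it lay at 4.16 and 4.88 in WT and at 6.04 and 5.94 in KO. All KO libraries were above all WT libraries of their cell type, though KO pre-cDC1 replicate 1 was close to the highest WT value. The difference was 1.53 ± 0.36 (SE; adjusted p = 0.186) in pre-cDC1 and 1.47 ± 0.44 (adjusted p = 0.510) in pre-cDC2. Over the alternatives the adjusted p in pre-cDC1 ran from 0.103 to 0.785.

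Rps29, a zinc-binding protein of the small subunit head, was at 6.88, 6.78 and 6.90 log2 RPKM in WT pre-cDC1 and at 7.25, 8.07 and 8.41 in KO. In pre-cDC2 it was at 6.42 and 6.76 in WT and at 7.70 in both KO libraries. The WT libraries lay close together and the KO pre-cDC1 libraries were spread over more than 1 unit. The differences were 1.06 (adjusted p = 0.203) and 1.11 (adjusted p = 0.471). Without KO pre-cDC1 replicate 1 the pre-cDC1 difference of Rps29 was 1.39 and passed (limma, adjusted p = 0.0461). Rpl37 (0.98 log2), Rpl23a (0.92), which sits at the tunnel exit, and Rps26 (0.85) completed the 5 smallest p-values in pre-cDC1, with adjusted p of 0.244 to 0.249.

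In pre-cDC2 the 5 smallest p-values belonged to Rpl37a, Rps27, Rpl36, Rpl36a and Rps19, with differences of 1.34, 1.30, 1.14, 1.33 and 1.10 and adjusted p of 0.346 to 0.438. Rpl37a was at 5.36 and 5.89 log2 RPKM in the WT libraries, and its 7.12 and 6.81 in those labelled KO did not overlap them. Rps19, the gene most often mutated in Diamond-Blackfan anaemia, was at 5.11 and 5.74 in WT and at 6.76 and 6.29 in KO. In pre-cDC1 the same 5 genes differed by 0.85, 0.68, 0.75, 0.77 and 0.71. Rps21, named here after its values were seen, had the largest difference of all members in pre-cDC2 (1.65), with 1.27 in pre-cDC1. Rpl41, the shortest member, was at 6.28, 5.98 and 6.04 log2 RPKM in WT pre-cDC1 and at 6.18, 6.66 and 7.31 in KO, so that these groups overlapped. In pre-cDC2 Rpl41 was at 6.04 and 6.13 in WT and at 7.24 and 6.94 in KO. Rpl39, at the end of the exit tunnel, differed by 1.07 and 1.14.

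The stalk is 1 structure built from short and long members. Rplp1 and Rplp2 bind Rplp0 and together recruit the elongation factors. Rplp1 (345 coding bases) was at 8.20, 8.11 and 7.87 log2 RPKM in WT pre-cDC1 and at 8.69, 9.001 and 9.67 in KO. In pre-cDC2 Rplp1 was at 7.32 and 8.27 in WT and at 8.65 and 9.10 in KO. Rplp2 (348 coding bases) differed by 0.92 and 0.88, and by 0.57 in pre-cDC2 without WT replicate 2. Rplp0 (954 coding bases) was at 10.94, 11.16 and 10.92 in WT pre-cDC1 and at 11.03, 10.43 and 10.79 in KO, a difference of -0.26 ± 0.26 (adjusted p = 0.856) that ran from -0.40 to -0.10 with each library left out. In pre-cDC2 Rplp0 was at 10.63 and 11.25 in WT and at 10.48 and 10.62 in KO, nearly touching, and the difference of -0.39 ran from -0.70 (without WT replicate 2) to -0.08 (without WT replicate 3). The Rplp1 differences were 1.06 (adjusted p = 0.291) and 1.08 (adjusted p = 0.632), with 0.60 without WT replicate 2 and 1.55 without WT replicate 3 in pre-cDC2.

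Long members lay on both sides of 0. The 23 members over 600 coding bases differed by -0.38 to 0.39 in pre-cDC1, where 11 were higher in KO and 12 lower. In pre-cDC2 they differed by -0.47 to 0.44, with 10 higher and 13 lower. Rpl4 (1260 coding bases) was at 10.57, 10.53 and 10.59 log2 RPKM in WT pre-cDC1 and at 10.45, 10.17 and 10.23 in KO, and Rpl3 (1212) at 8.95, 9.04 and 8.90 against 8.81, 8.35 and 8.66. For both, all KO pre-cDC1 libraries lay below all WT ones, with differences of -0.28 and -0.36 (adjusted p = 0.762 and 0.737). In pre-cDC2 the groups overlapped for both. The difference of Rpl3 there, -0.16, turned positive without WT replicate 3 (0.30), without KO replicate 1 (0.01) and with quantile normalization (0.01). Without WT replicate 2 it was -0.61, and that of Rpl4 moved from -0.27 to -0.48. With quantile normalization the Rpl4 difference was 0.07.
Rps6, the substrate of S6 kinase, differed by 0.01 and 0.03, and Rps3, at the mRNA entry, by 0.03 and 0.05. Rpsa differed by -0.07 and -0.29, and Rps4x by -0.01 and -0.32. With each library left out in turn the difference of each of these 4 genes took both signs in both cell types, and without WT replicate 2 the pre-cDC2 values were -0.32, -0.32, -0.86 and -0.56. Rpl5 and Rpl11 bind Mdm2 together when ribosome assembly fails. Rpl5 (894 coding bases) differed by -0.04 and 0.15, the latter turning to -0.21 without WT replicate 2, and Rpl11 (537 coding bases) by 0.50 and 0.68. Rps27a, made as a fusion with ubiquitin, differed by 0.57 and 0.38, the latter falling to 0.25 without WT replicate 2.

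**Figure D2:**
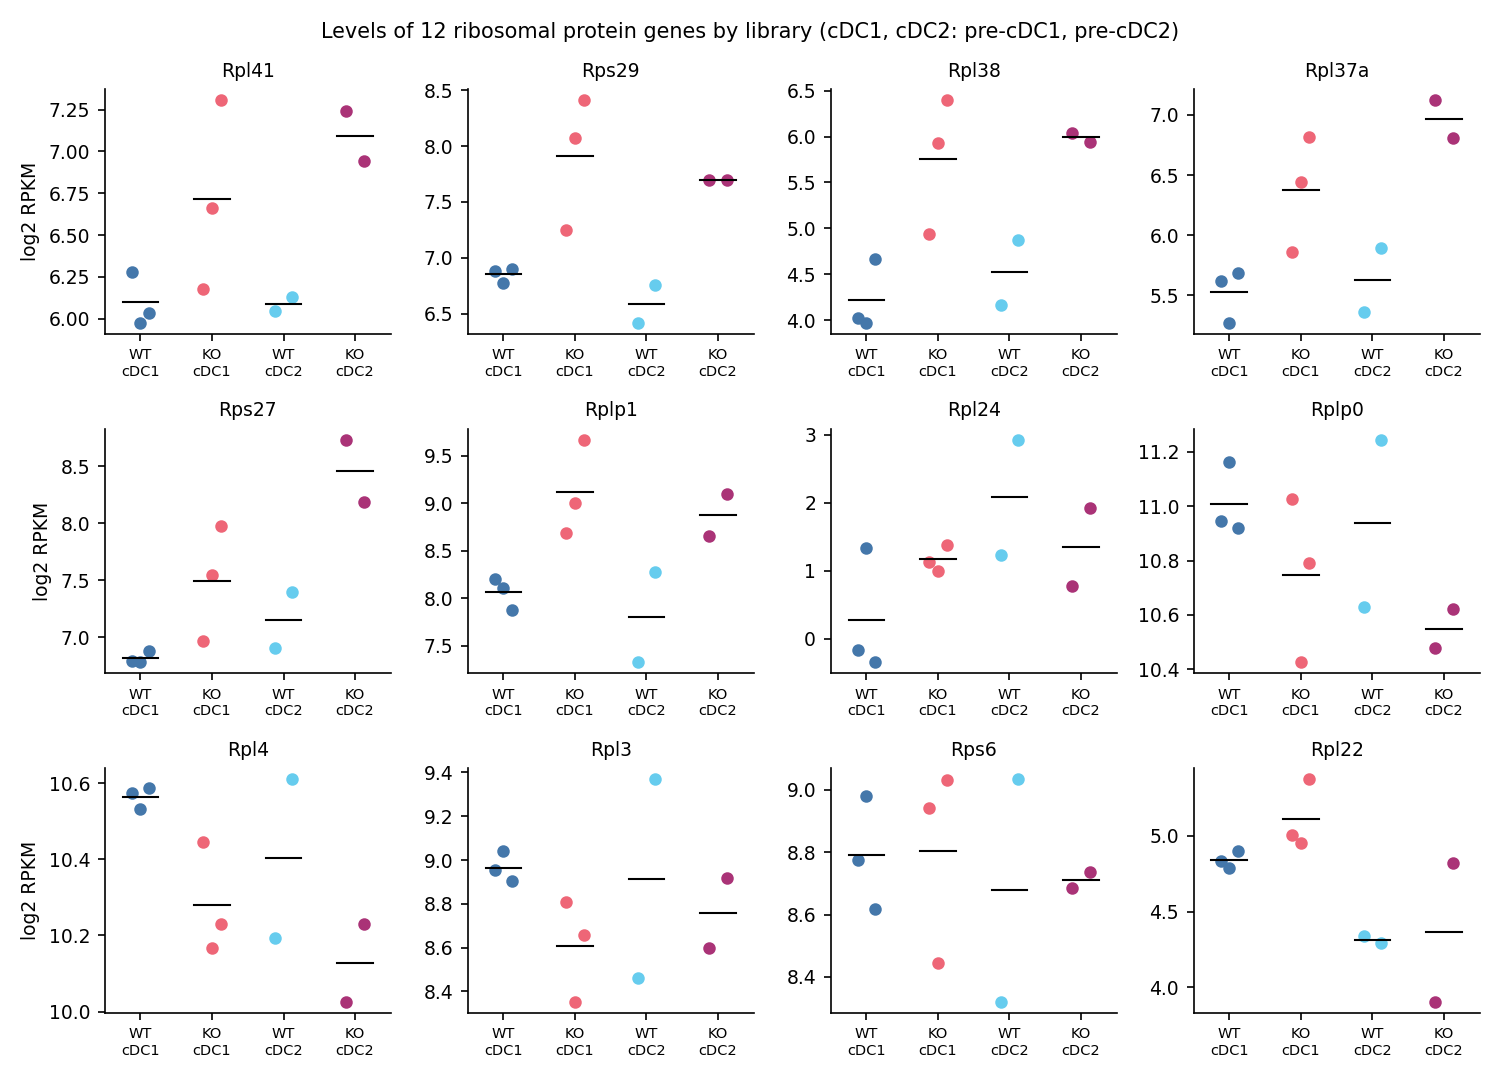
Levels in log2 RPKM of 12 ribosomal protein genes, 1 point per library and a line at each group mean, with a separate vertical axis for each gene that does not start at 0. Rps29, Rpl38, Rpl37a, Rps27 and Rplp1 sit higher in KO than in WT in both cell types, while the group means of Rplp0, Rpl4 and Rpl3 are lower in KO in both and those of Rps6 differ by at most 0.03.

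The mean of the 10 shortest members minus the mean of the 23 longest gives 1 value per library on the log2 scale. It was -2.61, -3.02 and -2.42 in WT pre-cDC1 and -2.49, -1.30 and -1.33 in KO pre-cDC1. For pre-cDC2 it was -2.44 and -2.79 in the WT libraries and -1.25 and -1.58 in those labelled KO. KO pre-cDC1 replicate 1 lay among the WT libraries, and the other 4 KO libraries lay apart from all WT libraries. The long members alone were at a mean of 7.77 to 8.12 in WT pre-cDC1 and 7.61 to 8.15 in KO pre-cDC1, and at 7.55 to 8.15 and 7.64 to 7.99 in pre-cDC2, so that these groups overlapped. The members' share of all RPKM was 3.59% to 4.02% in WT pre-cDC1 and 4.03% to 5.54% in KO. In pre-cDC2 it was 3.73% and 5.55% in WT and 5.31% and 6.00% in KO, where the groups overlapped.

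**Figure D3:**
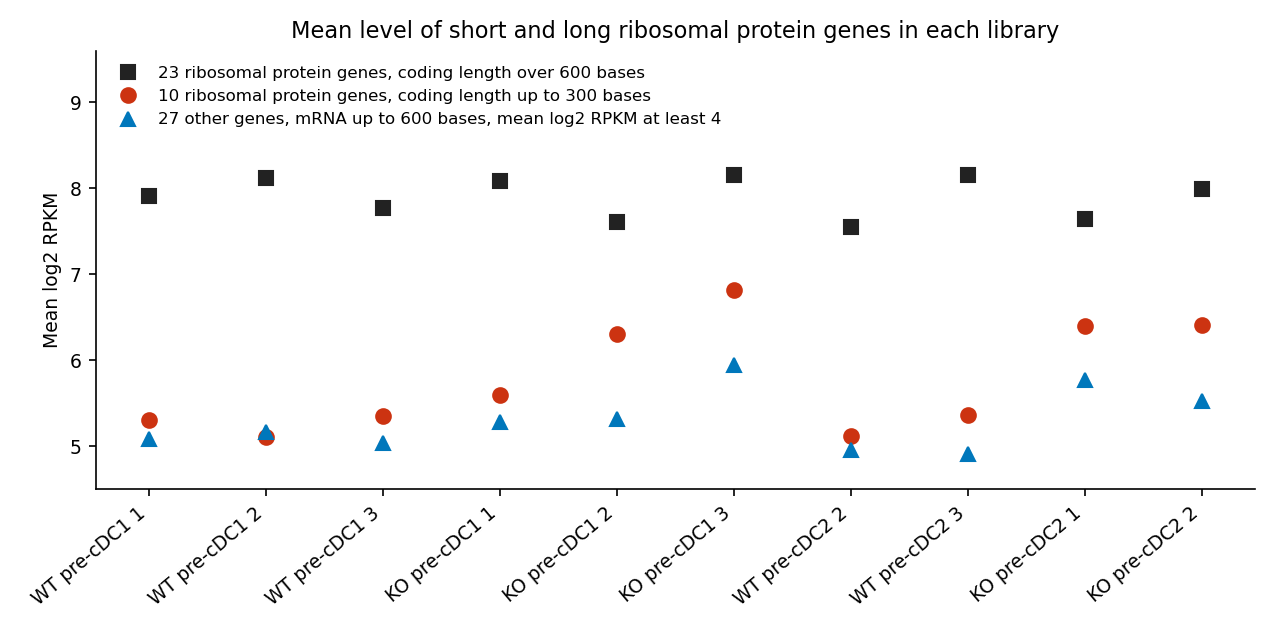
Mean log2 RPKM in each of the 10 libraries of 23 long ribosomal protein genes (squares), 10 short ones (circles) and 27 other short genes (triangles). The short ribosomal protein genes lie at 5.10 to 5.37 in the WT libraries, 5.60 in KO pre-cDC1 replicate 1 and 6.30 to 6.82 in the other KO libraries, while the long ones show no such step.

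Other short mRNAs had positive median differences too. Of the protein-coding genes outside the members, 27 had an mRNA of up to 600 bases and a mean log2 RPKM of at least 4, and their median KO minus WT difference was 0.66 in pre-cDC1 and 0.90 in pre-cDC2. Without the minimum level there were 139 such genes, with medians of 0.35 and 0.55. The 19 members with an mRNA of that length had medians of 0.83 and 1.08. Without WT replicate 2, the pre-cDC2 medians were 0.87 in the 27 genes, 0.63 in the 139 and 0.73 in the 19 members. The order of the members and the 27 genes in pre-cDC2 thus depended on that library. For mRNAs of 601 to 1200 bases the medians were 0.56 and 0.46 in 42 members, against -0.08 and -0.05 in 271 other genes above the minimum level. By coding length the other genes differed less. The 69 above the minimum level with up to 300 coding bases had medians of 0.18 and 0.27, against 0.96 and 1.16 in the members. The 156 of 301 to 450 coding bases had -0.0059 and -0.05, against 0.77 and 0.89. Over all 10726 other genes the rho between coding length and the difference was 0.11 in pre-cDC1 and 0.10 in pre-cDC2, of the opposite sign to the members. The part of mRNA length in the members' differences was not tested.

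**Figure D4:**
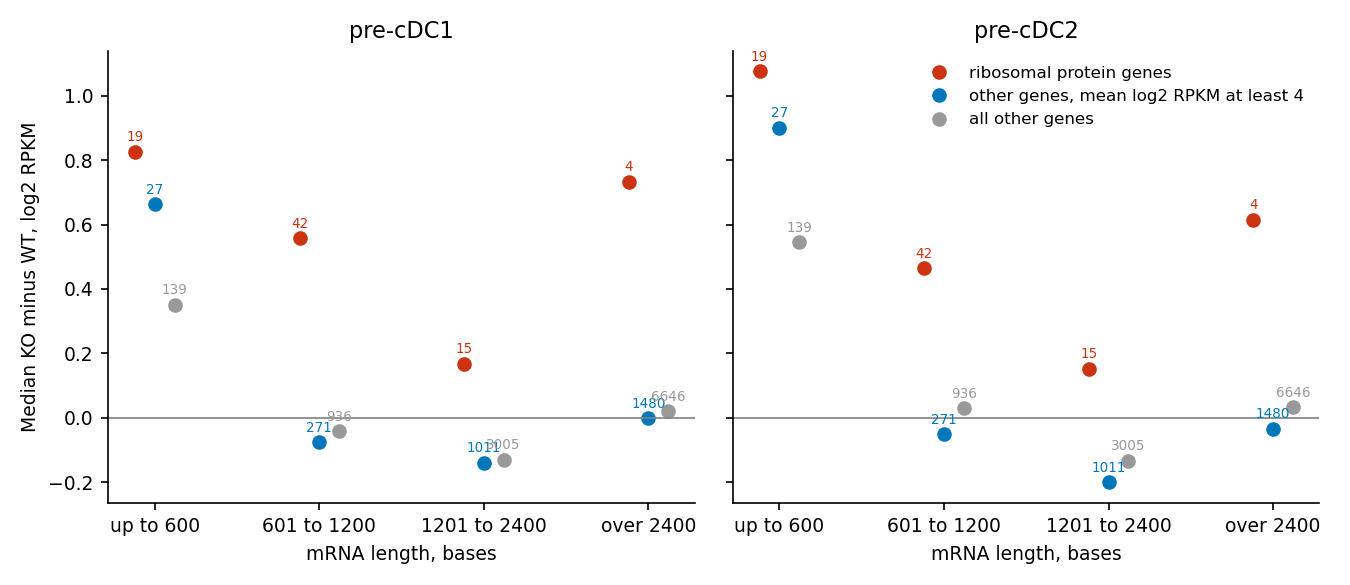
Median KO minus WT difference in log2 RPKM by mRNA length class in pre-cDC1 (left) and pre-cDC2 (right), for ribosomal protein genes, for other genes with a mean log2 RPKM of at least 4 and for all other genes, with the number of genes above each point. In the shortest class all 3 sets lie above 0, and from 601 to 2400 bases only the ribosomal protein genes have medians above 0.1; the class over 2400 bases holds only 4 of them.

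The 2 cell types share no library, and the members' differences in them can be set side by side. Over the 84 members rho was 0.82 and Pearson's r 0.84, with 64 members higher in both and 12 lower in both. Both axes share the gene lengths, so this is a description across genes. The median member difference between the effects, pre-cDC2 less pre-cDC1, was 0.01, and no member passed the interaction test (0.0203% of all genes did). None had an unadjusted p under 0.05, against 4.82% of all genes. By voom 0 members passed as well (0.00676% of all genes did), and 0 had an unadjusted p under 0.05. Of all genes, 2.76% were higher and 1.57% lower at that unadjusted p by voom. The smallest p-values there were those of Rpl24 (-1.63), Rps3a2 (-0.75), Rps3a3 (-0.67), Rps27 (0.62) and Rpl7l1 (-0.28), all at an adjusted p of 0.987.

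Lists of genes that work with the ribosome had medians near 0 between KO and WT. For their unadjusted counts, the shares of all genes at p under 0.05 (limma) were 3.89% higher and 5.14% lower in pre-cDC1. In pre-cDC2 these shares were 3.56% and 3.12%. Of 36 translation factors and other mRNAs known for a pyrimidine start, 0 passed in limma (2 were lower at an unadjusted p under 0.05 in each cell type), and their medians were 0.01 in pre-cDC1 and -0.10 in pre-cDC2. Of 58 genes of ribosome biogenesis and RNA polymerase I, 0 passed (unadjusted, 1 higher and 1 lower in pre-cDC1, 3 and 2 in pre-cDC2), with medians of 0.03 and 0.01 (-0.14 in pre-cDC2 without WT replicate 2). Of 78 mitochondrial ribosomal proteins, which form the separate ribosome of mitochondria, 0 passed (unadjusted, 8 higher and 2 lower, then 6 and 1), with medians of 0.02 and -0.02. Of 22 genes of mTORC1 and its control of translation, with medians of -0.11 and 0.05, 1 fell in pre-cDC1. This was Ddit4, an inhibitor of mTORC1, with -2.31 ± 0.24 (limma, adjusted p = 0.0182), and its difference was -1.61 in pre-cDC2 (adjusted p = 0.157). Fau, a small subunit protein outside the name rule with 402 coding bases, differed by 0.57 and 0.71. Rack1, with 954, differed by -0.18 and -0.29, the latter -0.52 without WT replicate 2. Without that library the pre-cDC2 medians were -0.19 for the translation factors, -0.05 for the mitochondrial ribosomal proteins and 0.03 for the mTORC1 genes. The 104 tested pseudogene rows named after ribosomal proteins had medians of 0.37 and 0.40, with 0 called (unadjusted, 18 higher and 2 lower, then 9 and 2), and the pre-cDC2 median was 0.10 without WT replicate 2.

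Between the cell types few ribosomal protein genes passed the test. In WT, 0 of 84 members passed, where 11.5% of all genes did, and 2 had an unadjusted p under 0.05, against 25.2% of all genes. By voom 0 members passed, against 13.3% of all genes. At an unadjusted p under 0.05 by voom, 2 members were higher (14% of all genes) and 1 lower (12.6%). The median difference, pre-cDC2 minus pre-cDC1, was -0.03, against 0.06 over all genes. Without WT pre-cDC2 replicate 2, 5 members (5.95%) passed, against 18.4% of all genes, and the median was 0.21. In KO, 3 of 84 members passed, where 20.8% of all genes did. The call was higher in pre-cDC2 for 1 member (10.7% of all genes) and lower for 2 (10.1%), and the median was 0.05 against 0.09 over all genes. With each library scaled to the same sum of RPKM, these medians were 0.29 and 0.41, while those of all genes moved to 0.38 and 0.45, so that the scaling moved members and other genes together. As deposited, 39 members were higher in WT (54.1% of all genes) and 47 in KO (54.5%). With the same sum of RPKM 76 and 72 were higher (70.8% and 69.7% of all genes), and with centring on library medians 19 and 27 (46.7% and 44.9%). Relative to the median of all genes, 29 members were higher in WT and 38 in KO under each of these scalings, which shift whole libraries.

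Rps27, a zinc-finger protein of the small subunit, was the 1 member that passed the test as higher in KO pre-cDC2 than in KO pre-cDC1. It was at 6.97, 7.54 and 7.98 log2 RPKM in KO pre-cDC1 and at 8.73 and 8.19 in KO pre-cDC2. The difference was 0.96 ± 0.29 (limma, adjusted p = 0.0431). This call was lost without KO pre-cDC1 replicate 1 or 2, without either KO pre-cDC2 replicate and without any 1 of the WT pre-cDC1 replicates. It was also lost with no filter, centring on library medians, trimmed mean scaling, eBayes without trend and a fit to these groups alone. In those 5 fits the adjusted p ran from 0.0624 to 0.186. The lowest difference of Rps27 was 0.69 without KO pre-cDC2 replicate 1. Its relative Rps27l, a target of p53, had a difference of -0.90 (adjusted p = 0.0626), and Rps27 exceeded Rps27l by 2.35 ± 0.09 (SD, n = 3) in KO pre-cDC1 and by 4.21 ± 0.42 (n = 2) in KO pre-cDC2. Rps27l passed with centring on library medians, trimmed mean scaling and library weights (adjusted p = 0.0286, 0.043 and 0.0458). It also passed when KO pre-cDC1 replicate 1 or WT pre-cDC1 replicate 2 was left out, and over all alternatives its adjusted p ran from 0.0286 to 0.278. The same gap was 2.55 ± 0.41 and 3.39 ± 0.58 in WT. Rpl22, which is required for the development of T cells, exceeded its paralog Rpl22l1 by 0.49 to 1.26 in every pre-cDC1 library. In pre-cDC2 that gap was 0.18 and -0.42 in WT and -0.82 and 0.25 in KO, below all pre-cDC1 libraries. Rpl22 itself differed by -0.53 in WT (adjusted p = 0.226) and -0.75 in KO (adjusted p = 0.0626). The KO value ran from -1.21 without KO pre-cDC2 replicate 2 (adjusted p = 0.0105) to -0.29 without KO pre-cDC2 replicate 1, and it passed with centring, trimmed mean scaling and library weights (adjusted p = 0.0241, 0.04 and 0.0465, from 0.0105 to 0.452 over all alternatives). Rpl7 exceeded Rpl7l1 by 2.22 to 3.32 across all libraries, with overlapping groups.

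The other 2 members that passed in KO were Rps3a3 and Rps3a2, which fell by 1.48 (limma, adjusted p = 0.00755) and by 1.40 (adjusted p = 0.0145) from pre-cDC1 to pre-cDC2. Without KO pre-cDC2 replicate 1 neither passed (adjusted p = 0.0864 and 0.15). With the labelled animal as a block none of the 3 passed (adjusted p of 0.0815 for Rps3a3, 0.105 for Rps3a2 and 0.104 for Rps27). Rps3a1 had the largest positive difference of any member in KO, 1.18 (adjusted p = 0.105), at 7.59, 7.11 and 7.70 log2 RPKM in KO pre-cDC1 and 8.36 and 8.92 in KO pre-cDC2, which did not overlap. It passed under 5 of the alternatives: the same sum of RPKM (1.54), a fit to these groups alone, library weights, and either WT pre-cDC2 library left out. Over all alternatives its adjusted p ran from 0.00675 to 0.401. Rps3a2 and Rps3a3 are processed copies, without introns, of Rps3a1, a small subunit protein gene. Rps3a1 lies on chromosome 3 (86137940-86142702), Rps3a2 on chromosome 14 (88123017-88123808) and Rps3a3 on chromosome 13 (108670603-108671397), in GRCm38. Aligned to the 795 coding bases of Rps3a1, Rps3a2 differs at 4 of 792 aligned bases (99.5% identical) and Rps3a3 at 9 of 795 (98.9%). Positions are counted from the A of the start codon, and the Rps3a1 base stands first. The differences of Rps3a2 are T216C, T534C, A645T and T668C, of which Rps3a3 shares T216C and T534C. The stretch from 609 to 668, which holds 3 of the differing positions, shows how few letters tell the copies apart (capitals mark those positions).
Rps3a1: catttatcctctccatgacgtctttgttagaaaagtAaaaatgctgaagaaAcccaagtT
Rps3a2: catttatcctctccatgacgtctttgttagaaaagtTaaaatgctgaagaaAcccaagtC
Rps3a3: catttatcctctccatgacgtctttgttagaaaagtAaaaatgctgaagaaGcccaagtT

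Reads were split among these 3 rows in 2 ways. Rps3a1 held 34.2%, 33.6% and 36.4% of their summed reads in WT pre-cDC1 and 34.0%, 36.9% and 35.2% in KO pre-cDC1. In pre-cDC2 it held 42.4% in WT replicate 2 but 82.2% in WT replicate 3, and 76.9% and 77.6% in KO. The split was thus alike in all pre-cDC1 libraries and in the pre-cDC2 library low in T cell and NK cell markers. It differed in the 3 pre-cDC2 libraries where both marker means were above 6. The part of other cells in this was not tested. Summed over the 3 rows, pre-cDC2 had 1.20 times the normalized reads of pre-cDC1 in WT and 1.04 times in KO. With sequences this alike, the 3 rows cannot be read as separate genes.

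**Figure D5:**
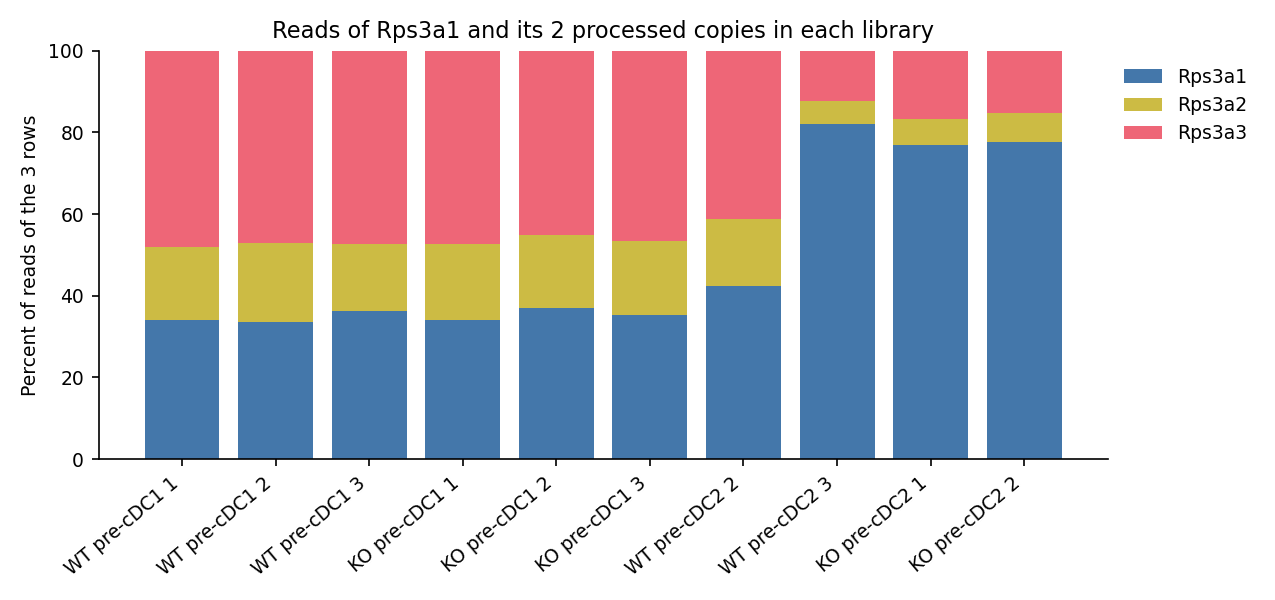
Percent of the reads of Rps3a1, Rps3a2 and Rps3a3 that falls on each row, 1 bar per library summing to 100. Rps3a1 takes 33.6% to 42.4% in the 6 pre-cDC1 libraries and WT pre-cDC2 replicate 2, and 76.9% to 82.2% in the other 3 pre-cDC2 libraries.

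In WT the 5 smallest p-values between cell types were those of Rps3a3 (-0.81), Rpl24 (1.81), Rps3a1 (1.03), Rpl29 (0.82) and Rpl22 (-0.53), with adjusted p of 0.119 to 0.226. Rpl24 was at -0.17, 1.33 and -0.35 log2 RPKM in WT pre-cDC1 and at 1.24 and 2.93 in WT pre-cDC2, which overlapped. Rpl29 was at 5.14, 5.37 and 4.96 in WT pre-cDC1 and at 5.31 and 6.65 in WT pre-cDC2, so that WT replicate 2 again lay with pre-cDC1. Without that library the differences of Rps3a1 and Rpl29 were 1.96 and 1.49, and without WT pre-cDC2 replicate 3 they were 0.09 and 0.16.

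Replicates differed more in some groups than in others. The median over members of the SD between libraries was 0.14 log2 RPKM in WT pre-cDC1 (n = 3), 0.42 in KO pre-cDC1 (n = 3), 0.38 in WT pre-cDC2 (n = 2) and 0.23 in KO pre-cDC2 (n = 2). The members lie on 19 chromosomes, with 4 on X. Of the X-linked members, Rpl39 and Rpl36a differed between KO and WT by 1.07 and 0.77 in pre-cDC1, and Rpl10 and Rps4x, which are longer, by 0.18 and -0.01. Small subunit members had medians of 0.61 and 0.59 and large subunit members 0.52 and 0.48.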

How the data were processed

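RNA of 10 libraries was measured by sequencing of 2 ng total RNA amplified with SMARTSeq v2, per the labels' protocols. The submitters' processing notes name STAR 2.3, featureCounts 1.5.0, edgeR, R 3.3.3 and the build GRCm38 (mm10), without their roles. Neither the annotation release, nor the strand setting, nor the handling of reads that fit several places is stated. The deposited values are log2 RPKM, made by the authors.

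Whole reads were recovered with exon lengths of GENCODE mouse release 21. All 490350 values of the 49035 genes with a length came out whole within 0.01 reads. Of the other 3515 genes, 2979 could be solved. The reads carry no molecular identifiers.

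A gene entered the test if 2 or more libraries exceeded 0 log2 RPKM, which 14787 did. No pseudocount was added. A model with a mean per group was fitted over the 10 libraries by limma 3.58.1 (R 4.3.3), using its trended eBayes (6 residual degrees of freedom). P-values were adjusted by Benjamini-Hochberg over all 14787 genes, with a threshold of 0.05. Coding and mRNA lengths came from 1 principal transcript per gene. On simulated data with 200 of 14787 genes changed, the fit recovered 2% of genes changed by 1 log2 unit and 51.5% of those changed by 2 in the pre-cDC1 comparison, and 0% and 42.5% in pre-cDC2.

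Named genes were the 5 members with the smallest p in each comparison (or all past the threshold), the 5 highest and 5 lowest by level, those around the level rule and a fixed set by role. The members and gene lists were chosen with earlier results of these data known.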

Additional observations from a re-analysis of the deposited data

How the results depend on the processing

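Of the recomputed values for single genes, 1584 kept their direction and their side of the threshold, 22 gained a call, 19 lost one and 37 changed sign. All sign changes were in KO minus WT, among members over 600 coding bases and Rpl22 and Rpl24, and the cause was not tested. With each library left out, the range in pre-cDC1 was -0.15 to 0.12 for Rpl5, -0.12 to 0.25 for Rps3, -0.15 to 0.22 for Rps4x, -0.10 to 0.19 for Rps6 and -0.24 to 0.19 for Rpsa. In pre-cDC2 it was -0.61 to 0.30 for Rpl3, -0.21 to 0.52 for Rpl5, -0.42 to 0.22 for Rpl10, -0.41 to 0.51 for Rpl22, -1.58 to 0.11 for Rpl24, -0.32 to 0.42 for Rps3, -0.73 to 0.10 for Rps4x, -0.32 to 0.39 for Rps6 and -0.94 to 0.36 for Rpsa. Quantile normalization gave 0.11 for Rps4x in pre-cDC1, and 0.0122 for Rpl3, 0.0654 for Rpl4 and 0.0288 for Rpl10 in pre-cDC2. The same sum of RPKM gave 0.0176 for Rpl5 and 0.0411 for Rps4x in pre-cDC1, and library weights gave 0.00255 and 0.0512. Trimmed mean scaling gave 0.00761 for Rps4x in pre-cDC1 and -0.00312 for Rps6 in pre-cDC2. Centring gave -0.0431 for Rps6, -0.0265 for Rpl22 and -0.0282 for Rps3 in pre-cDC2.

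Members called were 0 to 2 when each library was left out in turn for KO minus WT in pre-cDC1, with medians of 0.32 to 0.73, and 0 to 8 in pre-cDC2, with medians of 0.35 to 0.83. For pre-cDC2 minus pre-cDC1 the calls were 0 to 5 in WT and 0 to 6 in KO, and the interaction median ran from -0.23 to 0.29. The difference in RPKM share between KO and WT pre-cDC2 ran from 0.11 to 1.92 percentage points.

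In KO, the 3 members called between the cell types were 0 with no filter, where more rows were adjusted for and 2.95% of them passed. They were 6 (7.14%) with centring on library medians, where 22.1% of all genes passed. With the same sum of RPKM they were 9 (10.7%), against 26% of all genes. A trimmed mean scaling gave 5 (5.95%, against 21.3% of all genes) and library weights gave 7 (8.33%, against 27.1%). Rps27 was not among those called with centring or with the trimmed mean scaling. The same sum of RPKM moved the median of WT to 0.29 and of KO to 0.41.

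With a replicate block by number, members called were 0, 0, 0, 3 and 0 over the 5 comparisons. Of all genes, 0%, 0.0135%, 7.87%, 18% and 0% passed. The members' medians were 0.57, 0.76, -0.09, 0.14 and 0.18. Same-numbered libraries did not deviate together (r between -0.03 and 0.03), so the numbers were not used as pairs. A replicate block by labelled animal left 0 members called in KO and in WT, where 7.4% and 1.47% of all genes passed. The fit on recovered reads (voom) was chosen after seeing the data. With 2 or 3 libraries a group, the fit to simulated data called few genes changed by 1 log2 unit. Those genes were drawn at random from all genes tested, so the recovery for the members themselves was not tested.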
